A study of Mus musculus with 6 samples.

Results

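Of the 6756 cytosines listed as differently methylated between wild-type and Tet1 knockout blood progenitors, 211 (3.12%) lay in LTR retrotransposons. They were chosen by their repeat label alone: every site of either list whose detailed annotation gave LTR as the repeat class was taken, whatever its difference. DNA came from LSK cells (lineage-negative, Sca-1 and Kit positive cells, the bone marrow fraction that holds the stem and progenitor cells of blood) sorted from mice 6 months old, with 3 samples labelled WT and 3 labelled Tet1 KO, all of the strain given as CD57BL/6. The labels do not describe the knockout allele, and whether a group's samples were separate mice is not stated. The assay was enhanced reduced representation bisulfite sequencing, which reads mainly CpG-rich fragments and does not tell 5-methylcytosine from 5-hydroxymethylcytosine.

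Each listed cytosine carries 1 difference in percentage points, read here as knockout minus wild type from the list names and signs, and no site is listed under 25 percentage points. Values per sample, coverage and p-values were not used here. The spread between replicates could therefore not be set beside any difference, the depth is unknown, and no test between groups was made. Intervals on shares and medians are 95% intervals that cover counting error alone and treat sites as independent, although all sites come from the same 6 samples and close sites can share reads. Cytosines that were measured and not listed were not used, so the counts below do not give the share of LTR cytosines that changed.

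LTR retrotransposons are remnants of retroviruses that entered the germline and were copied through RNA. An intact element has an internal region of viral genes between long terminal repeats (LTRs), which carry its promoter and enhancer, and many copies have been reduced to a solitary LTR. Mammalian cells keep most copies silent with DNA methylation and repressive histone marks, and the Tet dioxygenases oxidise 5-methylcytosine and so can lead to its removal. In the mouse, ERV1 elements are related to gammaretroviruses, ERVK elements include the IAP and ETn families that still insert, ERVL includes MERVL and its MT2 repeats, and the MaLR elements are older, non-autonomous relatives of ERVL.

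Most LTR sites were more methylated in the knockout, but hypomethylated sites were a larger share of them than of sites outside repeats. The authors' deposited tables listed 171 of the 211 LTR sites as hypermethylated (81.0%, exact Clopper-Pearson interval 75.1 to 86.1%) and 40 as hypomethylated (19.0%). Among intron and intergenic sites with no repeat or CpG island label, 264 of 3776 were hypomethylated (6.99%, 6.20 to 7.85%), and among all listed sites 486 of 6756 (7.19%). The intervals of the LTR sites and the unlabelled sites did not overlap. LINE and SINE sites were also hypomethylated more often than unlabelled sites, at 26.4% (29 of 110, interval 18.4 to 35.6%) and 17.1% (31 of 181, 11.9 to 23.4%). Those intervals overlap that of the LTR sites, so no difference in direction from the other transposons could be made out.

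The order was the same when close sites were joined. Neighbours under 1000 bp apart that moved the same way made 134 hypermethylated and 39 hypomethylated LTR regions, a hypomethylated share of 22.5% (16.5 to 29.5%), against 9.74% (8.64 to 10.9%) of the unlabelled regions. Seen the other way, LTR sites were 4.05% of the 4227 hypermethylated intron and intergenic sites (3.47 to 4.68%) and 10.3% of the 390 hypomethylated ones (7.43 to 13.7%). Only intron and intergenic sites carry repeat labels in the files, so exon and promoter sites inside LTR elements are not in these counts.

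**Figure D1:**
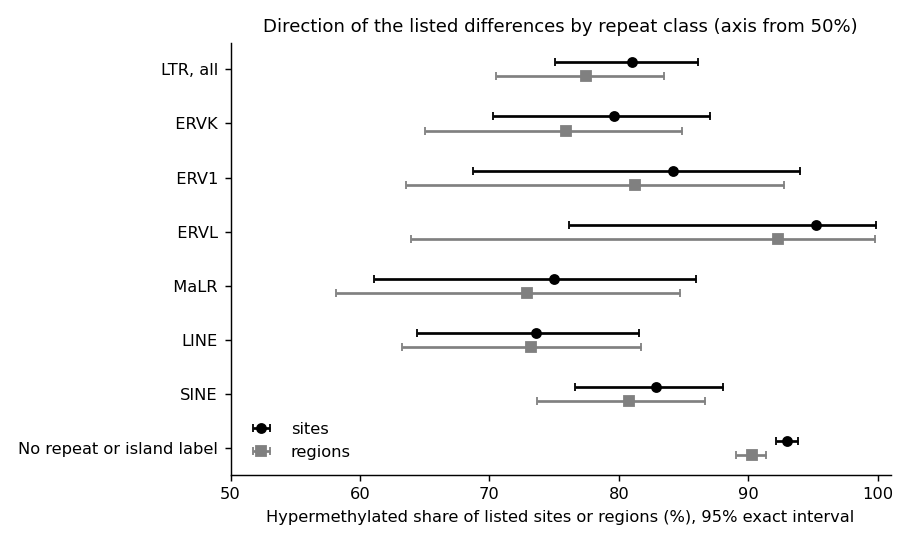
Hypermethylated share (x axis, percent, starting at 50%) of listed sites (black circles) and joined regions (grey squares) in LTR elements, their 4 larger families, LINE and SINE elements and intron or intergenic sequence without a repeat or island label, with 95% exact intervals. The LTR point lies at 81.0% for sites and the unlabelled point at 93.0%.

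The hypomethylated share of LTR sites stayed near its level in the whole lists when a larger difference was required. At a minimum absolute difference of 40 percentage points 13 of 74 LTR sites were hypomethylated (17.6%, 9.70 to 28.2%), and at 50 percentage points 5 of 27 (18.5%, 6.30 to 38.1%). The unlabelled share was 4.29% (80 of 1863 sites) at 40 and 3.45% (32 of 927) at 50 percentage points. At 60 percentage points 2 of 8 LTR sites were hypomethylated, and the interval of 3.19 to 65.1% is too wide for a comparison.

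**Figure D2:**
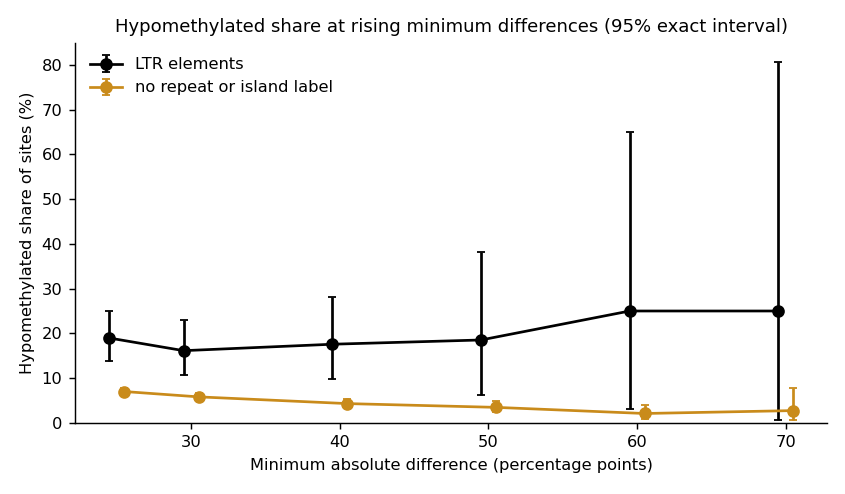
Hypomethylated share of sites (y axis, percent, 95% exact interval) against the minimum absolute difference (x axis, percentage points) in LTR elements (black) and in unlabelled intron and intergenic sequence (ochre). The LTR share lies between 16.1 and 25.0% and the unlabelled share falls from 6.99% at 25 to 2.08% at 60 percentage points and is 2.73% at 70.

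Gains in LTR elements were smaller at the median than gains at unlabelled sites. In the authors' deposited table the 171 hypermethylated LTR sites had a median difference of 35.6 percentage points (order-statistic interval 34.1 to 37.6, range 25.0 to 83.3). The unlabelled hypermethylated sites had a median of 40.1 percentage points (39.6 to 40.7), above the LTR interval. The LINE median was 36.1 (33.6 to 38.5) and the SINE median 41.4 percentage points (38.5 to 43.9). Losses had medians of -32.3 percentage points in LTR elements (-39.4 to -29.6, range -72.5 to -25.3) and -34.5 at unlabelled sites (-35.5 to -33.3), with intervals that overlap.

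ERVK elements held the most LTR sites, 98 of 211 (46.4%), under 51 element names. Of these, 78 were hypermethylated and 20 hypomethylated, with medians of 37.0 and -32.3 percentage points by the authors' deposited tables. MaLR elements followed with 52 sites (39 and 13), ERV1 with 38 (32 and 6), ERVL with 21 (20 and 1) and the ancient Gypsy-like elements with 2, both hypermethylated. The hypermethylated share was 79.6% in ERVK (70.3 to 87.1%), 39 of 52 in MaLR (61.1 to 86.0%), 84.2% in ERV1 (68.7 to 94.0%) and 95.2% in ERVL (76.2 to 99.9%). All 4 intervals overlap, and at this number of sites no difference in direction between families could be made out. Of the 20 ERVL gains, 6 lay in a single MT2A copy.

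**Figure D3:**
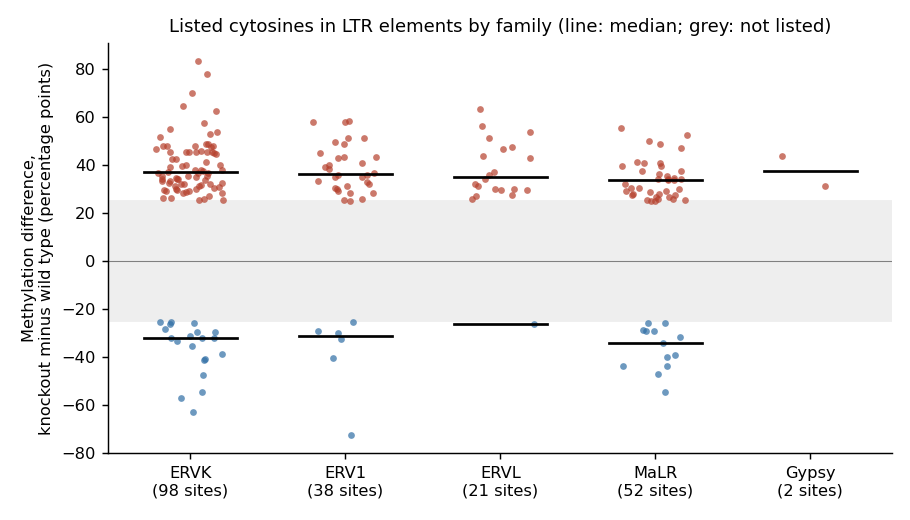
Methylation difference, knockout minus wild type (y axis, percentage points), of the 211 listed LTR sites by family (x axis), 1 point per cytosine, gains in red and losses in blue, with a line at each median. Gains outnumber losses in each family, and the ERVK points reach from -63.1 to 83.3 percentage points; the grey band holds no points because the lists start at 25.

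Internal sequence and LTR sequence both carried mostly gains. Sites under a name ending in "-int", which marks the internal part of an element, numbered 46, of which 40 were hypermethylated (87.0%, 73.7 to 95.1%). The other 165 sites, under names without that ending, had 131 hypermethylated (79.4%, 72.4 to 85.3%). The median gains were 36.2 and 35.1 percentage points by the authors' deposited table.

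Among the young ERVK families, ETn and MusD elements (early transposons that still cause insertional mutations in mice) had 15 sites in 9 stretches, 14 of them hypermethylated. A stretch is a run of sites of the same element name less than 1000 bp apart. The gains ran from 29.7 to 57.6 percentage points by the authors' deposited table, and the single loss was -32.2 percentage points, in ETnERV2-int sequence on chromosome 3 (3169823, mm9), 338207 bp from Hnf4g. RLTRETN_Mm, the LTR of these elements, had 6 sites in 4 stretches on 4 chromosomes, all gained, between 29.7 and 39.9 percentage points. IAP elements, the intracisternal A particles best known from coat-colour alleles set by their methylation, had 9 sites in 5 stretches. The authors' deposited tables gave 5 gains in 1 IAPLTR2_Mm copy and single gains of 44.8 percentage points (IAPEY3-int, nearest Gm436) and 39.0 percentage points (IAPEY_LTR on X, nearest Pou3f4). Losses were listed in IAPLTR3-int (-41.4 percentage points, nearest Vmn2r97) and IAPEz-int (-31.1, nearest Adarb2). IAP sites thus stood in both lists.

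RMER17B was the element name with the most sites, 10 in 7 stretches on 7 chromosomes. The authors' deposited tables gave gains at 8 of them, between 28.6 and 62.6 percentage points, and losses at 2, of -29.7 near Spink13 and -32.3 near Dscc1. With the similar names RMER17A, RMER17A2, RMER17A-int, RMER17C and RMER17D2, a group put together after its values were seen, 21 of 24 sites were hypermethylated. RMER17C had 6 gains in 5 stretches, from 25.6 to 48.2 percentage points. Of 6 sites in RLTR10 elements (ERVK; LTR and internal sequence) 4 were hypomethylated (66.7%, 22.3 to 95.7%), in 3 of 5 stretches. By the authors' deposited table those were a pair in RLTR10D near Ahi1 (-25.4 and -29.6 percentage points), RLTR10A near Bambi (-47.6) and RLTR10-int (-54.5). The RLTR10-int site lay 1121285 bp from the start of its nearest gene, Acvr2a. The largest LTR gain of all, 83.3 percentage points, was also in an RLTR10 element, RLTR10B2. With 5 stretches the group is too small to rank against others.

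In the MaLR family 9 of the 13 losses lay in MT elements, which held 24 of its 52 sites. Of 24 MT sites (names MTC, MTD, MTD-int, MTE2a, MTE2b, MTEa and MTEb) in 23 stretches, 15 were hypermethylated and 9 hypomethylated (37.5%, 18.8 to 59.4%). MLT1 elements, which predate the rodents, had 18 gains and 2 losses (interval of the lost share 1.23 to 31.7%), and ORR1 elements had 6 gains and 2 losses. The MT and MLT1 intervals overlap, and the MT interval includes the hypomethylated share of all MaLR sites, 25%. By the authors' deposited table the 9 MT losses ran from -25.7 percentage points (MTEa near Cog2) to -54.5 (MTD near 2210408F21Rik) and lay on 8 different chromosomes. Among them were MTE2b near Irf1 (-39.4), MTEa near Aknad1 (-44.0) and MTE2a 412392 bp from Bai3 (-40.2). MTD had 3 gains and 2 losses, MTEa 2 and 2, MTE2b 3 and 1, and ORR1D2 3 and 1.

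ERV1 sites included virus-like 30S elements and relatives of murine leukaemia virus. MMVL30-int had 5 sites in 5 separate stretches on 4 chromosomes, all hypermethylated, at 36.7, 38.2, 40.9, 43.5 and 49.7 percentage points by the authors' deposited table. A related RLTR6-int site near Zscan4d was hypomethylated (-30.2 percentage points). RLTR4_MM-int had 4 gains in 1 copy. MURVY-LTR had 3 gains on 3 chromosomes, between 31.1 and 35.0 percentage points, and RLTR1B had 1 gain of 32.3 and 2 losses of -32.6 and -40.6 percentage points. RLTR1B-int had 3 gains in 2 copies and RodERV21-int had 3 gains. In ERVL, MT2A had 7 gains in 2 copies, RMER10A 3 gains in 2 copies, and MLT2B4 and RMER10B 2 gains each in 1 copy. The only ERVL loss (-26.2 percentage points) was in MT2B, 24715 bp from Pdcd1, the gene of the inhibitory receptor PD-1. Of the 2 listed sites nearest to Pdcd1, the other was a gain outside LTR elements.

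**Figure D4:**
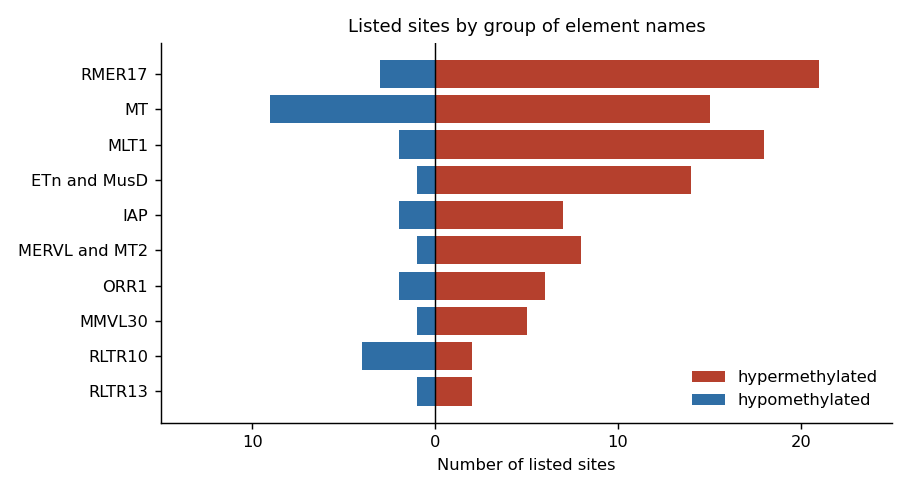
Number of listed sites (x axis) in 10 groups of element names (y axis), gains in red to the right of 0 and losses in blue to the left. RMER17 (21 gains and 3 losses) and MT (15 and 9) have the most sites, 24 each, and RLTR10 is the only group of the 10 with more losses than gains.

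The 211 sites bore 106 element names, and 58 of the names had a single site. Names with gains alone numbered 74, names with losses alone 17, and 15 names had both. No stretch held sites of both directions. Of the 48 names with at least 2 sites, 33 thus had a single direction, in a set where 81.0% of sites were gains. Some of the 33, such as IAPLTR2_Mm and RLTR4_MM-int, had all their sites in 1 stretch, so their sites do not compare copies. Most stretches, 149 of 174, had 1 site.

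The 211 sites formed 174 stretches, of which 25 (14.4%, 9.52 to 20.5%) held at least 2 sites. Of 135 hypermethylated stretches 24 had at least 2 sites (17.8%, 11.7 to 25.3%), and of 39 hypomethylated stretches 1 did (2.56%, 0.0649 to 13.5%). Joined by distance alone, 17.9% of the 134 hypermethylated LTR regions had at least 2 sites (11.8 to 25.5%), against 26.9% of the 2391 unlabelled hypermethylated regions (25.2 to 28.8%), 11.3% in LINE and 13.5% in SINE elements. Hypomethylated regions had a similarly low share at unlabelled sites (2.33%), in LINE (3.85%) and in SINE elements (3.33%). Within the 25 stretches of at least 2 sites the SD between sites had a median of 3.71 percentage points (range 0.290 to 12.2). Of these, 22 had all their sites on 1 strand. With reads of 50 bases, neighbouring cytosines of 1 strand can come from the same reads, so such sites are not repeated measurements. Joining same-strand sites less than 50 bp apart left 182 groups, 23 of them with more than 1 site, and 2 groups held sites with identical values. None of the 211 sites had its opposite-strand partner of the same CpG in the lists. Such partners were rare in the lists as a whole, at 114 of all 6756 listed sites.

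The largest cluster was an MT2A repeat, an LTR related to that of MERVL, with 6 gains over 287 bp on chromosome 17 (48786820 to 48787107, mm9), intergenic and at least 192594 bp from Unc5cl, the gene of a death domain protein. The authors' deposited table gave 27.3 and 34.2 percentage points on the forward strand and 51.2, 56.3, 46.6 and 43.1 on the reverse strand, so both strands rose. On the same chromosome, an RMER10A copy (48725414 to 48725425) also nearest to Unc5cl had gains of 53.8 and 44.0 percentage points. All 8 sites listed nearest to Unc5cl were in these 2 LTR copies.

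An IAPLTR2_Mm repeat on chromosome 10 (99062510 to 99062665, mm9) had the highest mean among the 10 stretches with the most sites. Its 5 forward-strand sites, 9140 to 9295 bp from Gm20110, rose by 64.7 and 70.3 and by 45.5 percentage points at the other 3 by the authors' deposited table (mean 54.3, SD between sites 12.2). The 3 equal values lie between 99062655 and 99062665. In RLTR4_MM-int on chromosome 1 (166154651 to 166154692), 24494 to 24535 bp from Slc19a2, a thiamine transporter gene, 4 reverse-strand sites rose by 45.0, 48.8, 51.2 and 51.2 percentage points. An RMER17B copy on chromosome 3 (33509516 to 33509641), 189476 bp or more from Ttc14, had 3 gains with a mean of 50.5 percentage points (SD between sites 11.4), the highest 62.6. ETnERV2-int on chromosome 11 (3846069 to 3846118), 13988 to 14037 bp from Tcn2, the gene of the vitamin B12 carrier transcobalamin, had 3 gains of 34.8, 45.9 and 57.6 percentage points. RLTR20B3 on chromosome 4 (137385544 to 137385733), near the endothelin-converting enzyme gene Ece1, had 3 gains of 29.3, 26.0 and 42.6 percentage points. The remaining 4 had the largest mean differences of the 19 stretches with 2 sites: RLTR26 near Iqcf4 (mean 52.4), MTD near Cds1 (50.7), RMER10A near Unc5cl (48.9) and ETnERV2-int near Asnsd1 (45.0 percentage points). Another Asnsd1 site, in sequence labelled RLTR9D at 53451180, rose by 33.3 percentage points.

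**Figure D5:**
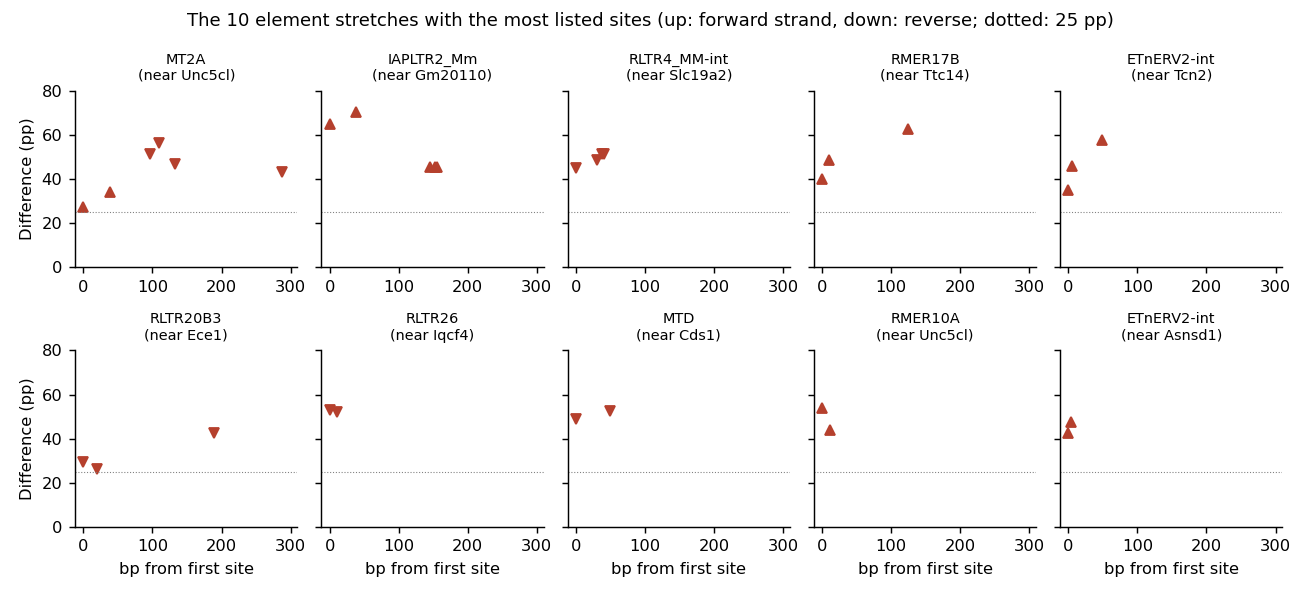
Methylation difference (y axis, percentage points) against the distance in bp from the first site (x axis) in the 10 element stretches with the most listed sites, with upward triangles for forward-strand and downward triangles for reverse-strand cytosines and a dotted line at 25. The first 6 panels hold all stretches with at least 3 sites; the last 4 are those of largest mean difference among 19 stretches with 2 sites, so the panels do not show the smaller pairs, 1 of them a loss.

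The copies of young families can be nearly identical in sequence. How reads that match several copies were treated is not given in the sources used here, so the assignment of IAP, ETn, RLTR4 and MMVL30 sites to a single copy is uncertain.

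By the authors' deposited table the 5 largest gains were RLTR10B2 near Vmn2r12, a vomeronasal receptor gene (83.3 percentage points, chromosome 5, 109540361), RLTR26 414426 bp from Cntn6 (77.9, chromosome 6, 104028612), the IAPLTR2_Mm sites above (70.3 and 64.7) and MER70B (63.6, chromosome 16, 48750608). The MER70B site lay in intron 3 of 5 of a transcript, 21461 bp from Trat1, which encodes a T cell receptor adaptor, and 5 other listed sites within 1000 bp of it were hypermethylated too. The 5 largest losses included RLTR5_Mm 1211442 bp from Lphn3 (-72.5 percentage points, chromosome 5, 80239176) and RMER12 near Ly6i (-63.1, chromosome 15, 74803023). The others were RLTR17 near 4930474G06Rik (-57.1), RLTR10-int 1121285 bp from Acvr2a (-54.5) and MTD near 2210408F21Rik (-54.5). Each of these 5 losses was the only listed LTR site of its stretch.

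LTR sites lay far from genes. By annotation 175 of the 211 were intergenic (82.9%, 77.2 to 87.8%) and 36 intronic, against 52.1% intergenic among the 3776 unlabelled sites. The median distance to the nearest transcription start was 34040 bp (28122 to 45256), against 17320 bp at unlabelled sites, 14395 bp at SINE and 37485 bp at LINE sites. Within 5000 bp of a start lay 21 LTR sites (9.95%, 6.27 to 14.8%), against 1131 of 3776 unlabelled sites (28.5 to 31.4%), and the closest was 605 bp away, an intronic RMER17C site nearest to Tmem74 (33.7 percentage points). Of those 21 sites 20 were gains. Between 20000 and 100000 bp the split was 67 gains and 23 losses, and the hypomethylated share there was 25.6% for LTR sites and 8.46% for unlabelled sites. Beyond 100000 bp it was 18.4 and 11.1%. The hypomethylated LTR share was thus above the unlabelled one in each distance bin from 5000 bp upward, with 13.7 against 7.46% between 5000 and 20000 bp. The intervals stood apart between 20000 and 100000 bp (16.9 to 35.8% against 6.95 to 10.2%) and overlapped in the other bins. Under 5000 bp it was 4.76 against 3.01%, on 1 LTR site.

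Of the 174 stretches 7 (4.02%) had a listed site outside LTR elements within 1000 bp, all 7 hypermethylated and with neighbours that were all gains. None of the 39 hypomethylated stretches had one. Counted by site, 8 of 211 LTR sites had a listed site outside their own repeat class within 1000 bp (3.79%, 1.65 to 7.33%), against 6.36% of LINE sites (2.60 to 12.7%) and 21.5% of SINE sites (15.8 to 28.3%). The nearest genes numbered 172, of which 133 had gains alone in LTR elements, 39 had losses alone and none had both. Only 24 of the 172 had at least 2 LTR sites, and a gene with 1 site cannot have both directions. Over all protein-coding genes nearest to a listed site, 87.1% had gains alone. That share counts all listed sites and leaves out non-coding genes, so it is not a like comparison for the 133 of 172. For 117 of the 172 the LTR sites were all their listed sites. Some of the others had a listed site of the opposite direction outside LTR elements, such as Ahi1, with 1 gain among 3 listed sites. A nearest gene is a matter of position, and no link to its activity was measured. Of the 17 genes with 2 LTR sites, 16 had gains and 1, Ahi1, had losses (-25.4 and -29.6 percentage points). Named beside Iqcf4 and Cds1 are the 6 others with the highest single difference. Among these, Fam118a was the closest, with RLTRETN_Mm gains of 35.5 and 39.5 percentage points 2860 to 2903 bp from its start, and another RLTRETN_Mm copy near the scaffold protein gene Dlg1 had gains of 33.3 and 39.9. RMER17C near the transporter gene Slc16a9 had 41.5 and 48.2, MLT1K near Arhgap26 had 35.6 and 41.5, MLT1D near Tmcc3 had 32.2 and 39.5, and the Gypsy-like MamGypLTR2 near the microRNA gene Mir148a had 31.1 and 43.8 percentage points by the authors' deposited table. The Mir148a stretch was among the 7 with neighbours, with 3 listed sites beside it.

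Chromosomes showed the same direction with few exceptions. Gains outnumbered losses on 19 of 20 chromosomes, and chromosome 18 had 3 gains and 4 losses. The X chromosome had 4 LTR gains and no LTR loss, and all listed X sites divided into 84 gains and 46 losses. With 4 LTR sites there, no difference in direction could be made out. Chromosomes 10 and 17 held the most LTR sites, 18 each, and 8 of those on chromosome 17 were the Unc5cl sites. On chromosome 19, 0.866% of the listed sites were in LTR elements.

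The genes nearest to LTR sites included no member of 2 gene lists. In the whole reference, 146 of the 21896 protein-coding genes (0.667%) were nearest to an LTR site, so few or none of either list would fall among them at that share. From a list of 76 genes of DNA methylation, histone methylation and other silencing of retroelements, 6 were nearest to any listed site, all with gains alone. Over all protein-coding genes 2990 (13.7%) were nearest to a listed site, and 87.1% of those had gains alone. The 6 genes from the list of 76 had 1 site each. Dnmt3b and Dnmt3l, a DNA methyltransferase and its cofactor, had 51.5 and 41.2 percentage points by the authors' deposited table. Setdb1, a histone methyltransferase that silences ERVs, had 34.8 and the germline Argonaute gene Piwil1 had 33.5 percentage points. The Tet dioxygenase gene Tet2 had 30.1 and Yy1 had 27.9 percentage points. From a list of 133 blood and stem cell genes, 36 had a listed site nearest to them, and 27 had gains alone.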

How the data were processed

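The authors' deposited tables give 1 methylation difference in percentage points per cytosine over 3 WT and 3 Tet1 KO samples; both begin at 25 percentage points, and columns of per-sample values numbered 0. The submitters' processing notes name Bismark and mm9. How the sites were selected (caller, coverage minimum, significance threshold, pooling) is not given in the sources used here. For distances, the authors' signed value in bp to the nearest transcription start (per the file headers) was used without its sign. Positions are those of the site identifiers (mm9), and no sequence was read.

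Sites were classed by repeat label, joined into regions (same direction, under 1000 bp) and stretches (same element name, under 1000 bp) in Python 3.11.15 with pandas 2.3.3, and shares got exact Clopper-Pearson intervals (scipy 1.17.1). The joining and the intervals were tested on simulated data. A RefSeq gene table (GRCm38.p6) held the Entrez identifier of the nearest gene for 210 of the 211 sites. It was used for names and for the set of protein-coding genes behind the gene shares.

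Named were the 3 commonest element names per family of at least 10 sites (with ties), the 10 stretches with the most sites (ties by mean absolute difference), the 5 largest differences each way, the 15 genes nearest to the most LTR sites (ties by the largest difference) and members of 2 gene lists. Other elements and genes (the MT and IAP losses, RLTR10) and the RMER17 and MMVL30 groups were picked after their values were seen. Members and lists were chosen with earlier results of these data known.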

Additional observations from a re-analysis of the deposited data

How the results depend on the processing

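For 13 results (direction, medians, shares, distance) 94 alternatives were computed, and 89 stayed inside the main value's 95% interval: the forward strand alone, merged CpG strands, autosomes alone, joined regions, other joining distances, leaving out RMER17B, and, added after the data were seen, joining same-strand sites within 50 bp. The hypermethylated share of LTR sites ranged from 77.5 to 82.4% over them. At a minimum of 40 percentage points the medians became 47.8 and -47.2 percentage points by construction, the LTR share of hypermethylated intron and intergenic sites was 2.87%, and the MaLR share of LTR sites was 17.6%; the cause of these lower shares was not tested. With all listed sites as denominator the LTR share of hypermethylated sites was 2.73%. No element name carried a question mark, so leaving such names out changed nothing. Merging CpG strands could not change results computed from LTR sites alone, because no LTR site had its opposite-strand partner listed. Joining stretches within 200 or 5000 bp gave the main value of 14.4% again. These unchanged values are counted among the 89. No paired analysis was possible because the tables hold no values per sample, and replicates could not be left out for the same reason. Depth is unknown, so differences from thinly covered cytosines could not be told from others.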

Other observations

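The sites below were picked out after their values were seen, for the known roles of the nearest genes, and are given as values alone; they lie up to 55133 bp from those genes. The authors' deposited tables list RMER17D2 6929 bp from H2-Ab1, a class II antigen presentation gene, at 48.9 percentage points and RLTR11A2 55133 bp from S1pr3, a sphingosine-1-phosphate receptor gene, at -38.6 percentage points. An MTE2b loss of -39.4 percentage points lay 33943 bp from the interferon regulatory gene Irf1, in intron 3 of 3 of another transcript.

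Vomeronasal and olfactory receptor genes were nearest to 7 of the 211 LTR sites (3.32%, exact interval 1.34 to 6.72%), 5 gains and 2 losses at 6 genes, against 36 of all 6756 listed sites (0.533%, 0.373 to 0.737%), which include them. Zinc finger genes named Zfp, Zscan or Zkscan were nearest to 6 LTR sites (2.84%, 1.05 to 6.09%), 4 gains and 2 losses, against 1.54% of all listed sites. All listed sites were 36.7% intergenic, against 82.9% of LTR sites, so the sets differ in location. Neither share was computed for LINE, SINE or unlabelled sites, and whether the receptor share is particular to LTR elements was not tested. By the authors' deposited tables, gains of 54.0 and 55.3 percentage points lay 3090 bp from Zscan12 (RMER17D2) and 2018 bp from Zfp260 (RMER19C). Gains of 39.2 and 35.0 percentage points lay 28641 bp from Zfp287 (RMER21A) and 7275 bp from Zfp579 (MURVY-LTR). Losses of -34.4 and -30.2 percentage points lay 49879 bp from Zfp354c (MLT1A) and 43288 bp from Zscan4d (RLTR6-int).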
